A study of Mus musculus with 6 samples.

Results

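The cells described here were 4631 spleen barcodes with CD8 RNA, chosen by measured values from the 11892 barcodes of a pair of spleen libraries, in a series of 6 libraries and 16651 barcodes. A barcode was kept with at least 500 genes, at least 1000 unique molecular identifiers (UMIs, each counting 1 RNA molecule), at most 20% mitochondrial UMIs, at least 1 UMI of Cd8a or Cd8b1 and 0 UMIs of Cd79a, Lyz2, Mpo and Elane. This kept 860 of 6929 barcodes (12.4%) in the library labelled Pdcd1fl/fl and 3771 of 4963 barcodes (76.0%) in the library labelled Pdcd1 cKO. The study compared CD8+ T cells of mice with and without PD-1 in thymus, spleen and tumor. Both spleens were taken at baseline, without a tumor or other treatment, from adult mice with Pdcd1fl/fl alleles on a C57BL/6 background, and CD8+ T cells were enriched with an isolation kit before the PIPseq v3 chemistry. In the mouse labelled Pdcd1 cKO, a Cd8a-cre transgene with the E8I enhancer drives the deletion, so cells that never used this enhancer keep the gene. Each spleen library came from 1 mouse, so there were no replicates and no difference between genotypes was tested. The tumor libraries set beside them hold CD8+ T cells that had entered B16-OVA tumors, taken on day 12 after injection and pooled from 3 mice each. An interval in parentheses spans 95% and covers counting error only.

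PD-1, the product of Pdcd1, is an inhibitory receptor that appears on T cells after contact with antigen and dampens signals of the T cell receptor. The spleen of an unchallenged mouse holds naive CD8 T cells, which recirculate through lymphoid organs, and memory-like CD8 T cells, which keep effector genes ready. Heat shock chaperones fold proteins and are made in larger amounts under stress, and immediate early genes are transcribed shortly after a stimulus such as a T cell receptor signal.

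The libraries stood apart before any gene was compared, and paired values give the library labelled Pdcd1fl/fl first. Median depth over all barcodes was 728 and 1611 UMIs, 5267 and 0 barcodes had under 1000 UMIs, and the filter on genes, UMIs and mitochondrial share kept 21.3% and 99.3% of the barcodes. Among barcodes past that filter, 58.4% (55.8 to 60.9) and 78.8% (77.7 to 80.0) had a UMI of Cd8a or Cd8b1, which encode the chains of the CD8 coreceptor. The chosen cells were closer to each other, with medians of 1372.5 and 1681 UMIs, 633 and 804 genes, and 3.63% and 3.99% mitochondrial UMIs. Their UMIs added up to 1376014 and 7039575. Just inside the depth threshold, 104 and 280 chosen cells had 1000 to 1099 UMIs, and just outside it 206 and 0 barcodes with CD8 RNA had 900 to 999. A lone CD8 UMI was the basis of the choice in 469 (54.5%) and 1301 (34.5%) cells, while 615 and 1043 barcodes past the filter had none. A UMI of an excluded gene removed 3 and 114 barcodes with CD8 RNA, 3 and 105 of them for a lone UMI. The spleen libraries shared 2 barcode sequences, none of them among the chosen cells, and no other pair of libraries shared any. The label CD8+ T cells held for the RNA of T cells in both libraries: Cd3e, a chain of the T cell receptor complex, stood at 228 and 352 CPM (counts scaled to the same total in each library). Because the rule used CD8 RNA, the levels of Cd8a (320 and 311 CPM) and Cd8b1 (867 and 1057 CPM) describe the choice of cells and are no finding.

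Pdcd1 (ENSMUSG00000026285; minus strand of GRCm39 chromosome 1, bases 93966027 to 93980312) is named in the genotype. It had 1 UMI in the library labelled Pdcd1fl/fl (0.727 CPM, 0.0184 to 4.05) and 85 UMIs in 73 cells of the library labelled Pdcd1 cKO (12.1 CPM, 9.64 to 14.9). The log2 CPM ratio, taken with the library labelled Pdcd1fl/fl as the denominator here and in the rest, was 3.48 (1.54 to 9.37), and Pdcd1 RNA thus went against the labels. By the same rule for cells, it also did in the thymus, with 9 and 116 UMIs (1.82, 0.92 to 3.06), and in the tumors 601 and 560 UMIs gave 0.12 (-0.04 to 0.29). The counts are per gene and do not show whether a read lies inside the floxed part, so whether the deletion took place was not tested. RNA of Nkg7 and Ifng ran as the labels say. By flow cytometry of other mice, the study reports loss of PD-1 in thymic CD8+ T cells of Pdcd1 cKO mice. It also reports less binding of an anti-PD-1 antibody to their splenic CD8+ T cells. Among splenic CD8+ T cells of Pdcd1 cKO mice, the study shows more NKG7+ cells (effector-like cells) and more IFN-γ+ cells (after stimulation). In the chosen cells, Nkg7 stood at 1285 and 1841 CPM (0.52, 0.45 to 0.59) and Ifng had 7 and 792 UMIs (4.37, 3.42 to 5.79). The study also reports fewer TNF+ cells after stimulation and less T-bet in effector-like cells of these mice. Of the effector list, which holds Tnf and Tbx21, 19 of 20 genes were compared and all 19 had an interval above 0. RNA of Tnf, Tbx21 or both was thus higher, unlike the protein in the study. Each direction given here rests on the labels as deposited. After thinning each cell to 1000 UMIs, 0% (0 to 0.428) and 1.19% (0.872 to 1.59) of cells had a Pdcd1 UMI, and without thinning 0.116% and 1.94%. Barcodes with Cd79a and without CD8 RNA were set beside these shares, here and below after thinning to 1000 UMIs. There were 1 and 13 of them, with median depths of 1130 and 1522 UMIs before thinning, and 0 had a Pdcd1 UMI (up to 24.7% for the 13). Of the 13, thinning left a Cd79a UMI in 7, and 11 had Cd3g and 10 Nkg7, genes of T and NK cells, so they give no background free of T cell RNA.

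Over both libraries, 6947 of 32227 genes reached 100 UMIs and were compared. At least 2-fold higher in the library labelled Pdcd1 cKO were 370 genes (5.33% of those compared), and at least 2-fold lower were 56 (0.806%). The interval of the ratio lay above 0 for 1736 genes (25.0%) and below 0 for 620 (8.92%), and it crossed 0 for 4591. The median gene had a log2 ratio of 0.15, and scaling by the median of ratios, which lowers each log2 ratio by 0.16, left 229 genes higher and 94 lower. Of the genes past 2-fold, 86.9% were higher by CPM and 70.9% by the median of ratios, so the lean to one side rested in part on the scaling. The minimum of 100 UMIs over both libraries also admits genes at a lower CPM when they are read in the deeper library labelled Pdcd1 cKO. With minimums of 20 and 500 UMIs, 1068 and 72 genes were higher and 391 and 2 lower. How much of the lean follows from this minimum was not tested. The whole interval lay past 2-fold for 66 higher and 14 lower genes. Outside the effector, exhaustion, ribosomal protein and immunoglobulin lists were 353 of the 370 higher and 56 of the 56 lower genes. Among the 700 genes with at least 200 CPM in either library, 31 were higher and 2 lower, and these 2 were Tafa2 and Gm49357. Of the 56 lower genes, 21 (37.5%) had at least 10 UMIs and at least 20% of a library's UMIs in 1 cell, against 13 (3.51%) of the higher genes and 107 (1.54%) of all compared, a count made after the values were seen. Without these 107 genes, 357 were higher and 35 lower. The lower genes had a median of 54.5 UMIs in their higher library and the higher genes 202. In a lower gene, 1 cell thus needed fewer UMIs to hold 20%.

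**Figure D1:**
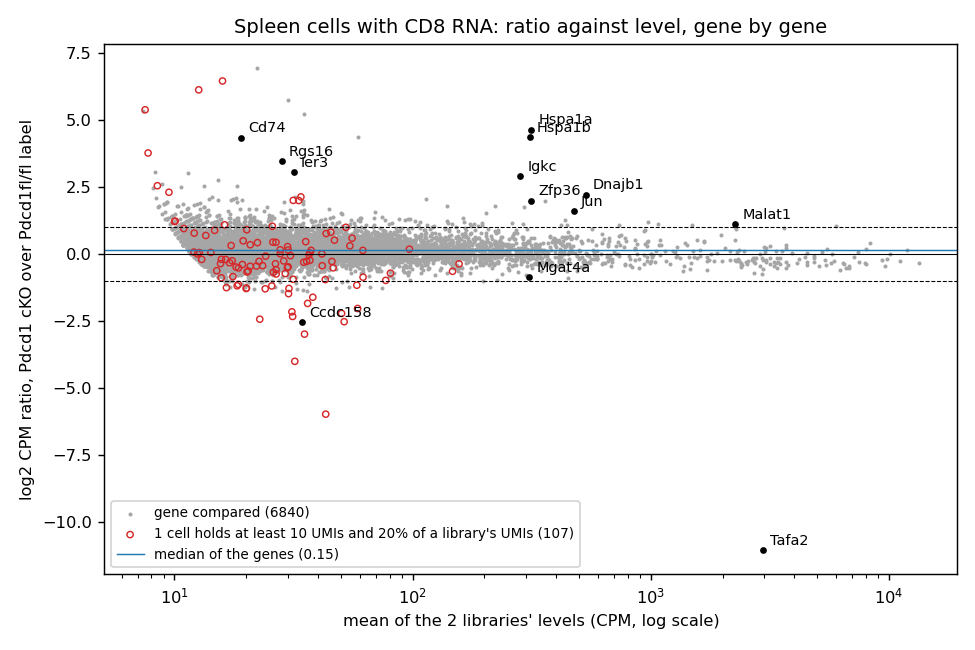
Log2 CPM ratio of each of the 6947 compared genes (vertical axis; above 0 is higher in the library labelled Pdcd1 cKO) against the mean of the CPM of the 2 libraries (horizontal axis, log scale). Dashed lines mark 2-fold, the blue line the median gene at 0.15, and red circles the 107 genes of which 1 cell holds a large part; Hspa1a and Hspa1b lie near 4.5 and Tafa2 at -11.06.

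Tafa2 (ENSMUSG00000044071, chromosome 10, 123099901 to 123577979, plus strand), a gene of a secreted protein known mainly from brain, had the largest ratio of any compared gene. It had 8112 UMIs in 849 of 860 cells of the library labelled Pdcd1fl/fl (5895 CPM) and 19 UMIs in 19 of 3771 cells of the library labelled Pdcd1 cKO (2.70 CPM), a log2 ratio of -11.06 (-11.83 to -10.45). No small group of cells carried it, since the median cell of the library labelled Pdcd1fl/fl had 8 Tafa2 UMIs and the 10th and 90th percentiles were 3 and 18. The barcodes of that library that the rule left out had the same RNA: 5192 CPM over all 6069 of them, 5024 CPM over the 5267 with under 1000 UMIs and 5198 CPM over the 4321 without CD8 RNA. In the library labelled Pdcd1 cKO, the 1192 barcodes left out had 6 Tafa2 UMIs (3.12 CPM). Within the library labelled Pdcd1fl/fl, the level was thus alike in barcodes of low and high depth, with and without CD8 RNA. Thymus cells had 1.40 and 1.13 CPM of Tafa2 and tumor cells 131 and 6.75 CPM, so a difference in the same direction was read in the tumor pair (-4.25, -4.84 to -3.75). The counts do not show which bases of this long gene were read, and the source of these UMIs was not tested.

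Many other genes with large ratios on the lower side came from single cells. Of the 15 lower genes whose interval lay farthest from 0, 8 had at least 50% of the UMIs of the library labelled Pdcd1fl/fl in 1 cell: 6030407O03Rik (116 of 117 UMIs), Dysf (74 of 83), Stox2 (77 of 86), Astn2 (41 of 53), Lyrm7 (57 of 72), Ehd4 (52 of 70), Lrrc4c (77 of 114) and Oplah (43 of 78). Their ratios describe those cells and not the libraries. Ccdc158 (ENSMUSG00000050050) differed more evenly: 81 UMIs in 36 cells and 71 UMIs in 48 cells (58.9 and 10.1 CPM; log2 ratio -2.54, -3.03 to -2.07), and it was lower in the thymus pair (-1.72) and the tumor pair (-2.46) as well. Among genes with at least 200 CPM, Mgat4a (ENSMUSG00000026110), an enzyme that branches N-glycans, stood at 400 and 218 CPM (-0.87, -1.01 to -0.73). Its ratio ranged from -1.04 to -0.26 over the alternatives, with the smallest difference in cells without a Ccl5 UMI. Mgat4a too was lower in all 3 tissues (-0.92 in the thymus, -1.04 in the tumors). Here and below, cells were split by Ccl5 after thinning, and 749 and 3687 cells had a Ccl5 UMI before it. Rbms2, an RNA-binding protein, stood at 587 and 316 CPM (-0.89, -1.01 to -0.78), and Draxin, known as a guidance protein of axons, at 300 and 153 CPM (-0.97, -1.14 to -0.81). Cct6a, a subunit of the chaperonin that folds actin and tubulin, was lower at 1651 and 1073 CPM (-0.62, -0.69 to -0.55).

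Among the lists with at least 10 compared genes, heat shock had the highest median. Of its 20 genes, 18 were compared, 10 were at least 2-fold higher and 0 lower (5.33% and 0.806% of all compared genes), and 17 had an interval above 0 (25.0% of all). Their median log2 ratio was 1.12 (0.95 by the median of ratios) against 0.15 (-0.01) for all compared genes, and the listed genes together stood at 4506 and 10114 CPM. Hspa1a (ENSMUSG00000091971, chromosome 17, 35188166 to 35191132, minus strand) and Hspa1b (ENSMUSG00000090877, chromosome 17, 35175412 to 35178214, minus strand), neighbouring genes of the inducible HSP70 chaperone, led the list. Hspa1a rose from 33 UMIs (24 CPM) to 4254 UMIs (604 CPM), a log2 ratio of 4.63 (4.16 to 5.20), which ranged from 3.39 to 4.84 over the alternatives and was lowest in cells without a Ccl5 UMI. Hspa1b went from 39 UMIs (28.3 CPM) to 4170 UMIs (592 CPM), a log2 ratio of 4.37 (3.93 to 4.88; 3.66 to 4.39 over the alternatives). Their coding sequences are nearly the same, and how reads were divided between them was not tested. A UMI of both was found in 4 cells (0.465%) and 1070 cells (28.4%).

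Several partners of HSP70 and HSP90 were higher too, though not all. Dnajb1 (ENSMUSG00000005483), the HSP40 that hands clients to HSP70, stood at 190 and 877 CPM (2.21, 2.03 to 2.39). Hsph1 (ENSMUSG00000029657), a nucleotide exchange factor of HSP70, stood at 62.5 and 216 CPM (1.78, 1.47 to 2.12). Bag3, a co-chaperone that links HSP70 to autophagy, had 9 and 208 UMIs (2.10, 1.22 to 3.32), and Stip1, which joins HSP70 to HSP90, had 34.9 and 104 CPM (1.56, 1.15 to 2.02). These 4 genes thus followed Hspa1a with smaller ratios. St13, another HSP70 partner, had 0.65 (0.32 to 1.02), and for Dnajb6, also an HSP40, the interval crossed 0 (0.23, -0.01 to 0.49). The inducible HSP90 gene Hsp90aa1 stood at 256 and 615 CPM (1.26, 1.11 to 1.43), and its constitutive partner Hsp90ab1 at 596 and 1357 CPM (1.19, 1.08 to 1.29). Hspa8, the constitutive HSP70 and the gene of the list with the most UMIs, stood at 1554 and 2982 CPM (0.94, 0.88 to 1.01). Chaperones of other compartments varied. Hspd1, the mitochondrial chaperonin, stood at 87.2 and 195 CPM (1.15, 0.89 to 1.44), while its co-chaperonin Hspe1 had 0.16 (0.04 to 0.29), which the median of ratios takes to 0.00. Hspa5 of the endoplasmic reticulum had 0.71 (0.60 to 0.82) and Hspa9 of mitochondria 0.34 (0.07 to 0.64). Outside the list and picked after their values were seen, Ahsa1, which stimulates the ATPase of HSP90, stood at 21.1 and 67.9 CPM (1.66), and Fkbp4, another HSP90 partner, at 26.2 and 74.4 CPM (1.49).

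The difference was spread over cells. In cells thinned to 1000 UMIs, the list gave a median of 4 UMIs per cell (10th to 90th percentile 2 to 8) in the library labelled Pdcd1fl/fl and 9 (5 to 16) in the library labelled Pdcd1 cKO, and 42.3% and 92.4% of cells had at least 5. An Hspa1a UMI was found in 2.56% (1.61 to 3.85) and 34.2% (32.7 to 35.7) of thinned cells, and in 3.49% and 46.5% of unthinned cells. In the barcodes with Cd79a and without CD8 RNA it was found in 0 of 1 and 2 of 13 (15.4%, 1.92 to 45.4). Hspa1b was found there in 4 of 13 (30.8%), against 34.9% of the thinned cells of the library labelled Pdcd1 cKO. Dnajb1 was found in 6 of 13 (46.2%), against 53.5%. Hspa5 (53.8% against 56.2%) and Hspe1 (38.5% against 37.9%) were near those of the chosen cells too. Lower, as for Hspa1a, were Hsp90aa1 (15.4% against 45.6%) and Dnaja1 (23.1% against 42.8%). The shares thus varied by gene, 13 barcodes are few, and the part of free RNA was not tested. Cells were split by a Ccl5 UMI after thinning, and some counted as without one had one before it. The list's median was 1.19 in cells with, 0.98 in cells without and 1.10 in barcodes without CD8 RNA. The list was thus higher in each of these 3 groups of barcodes.

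**Figure D2:**
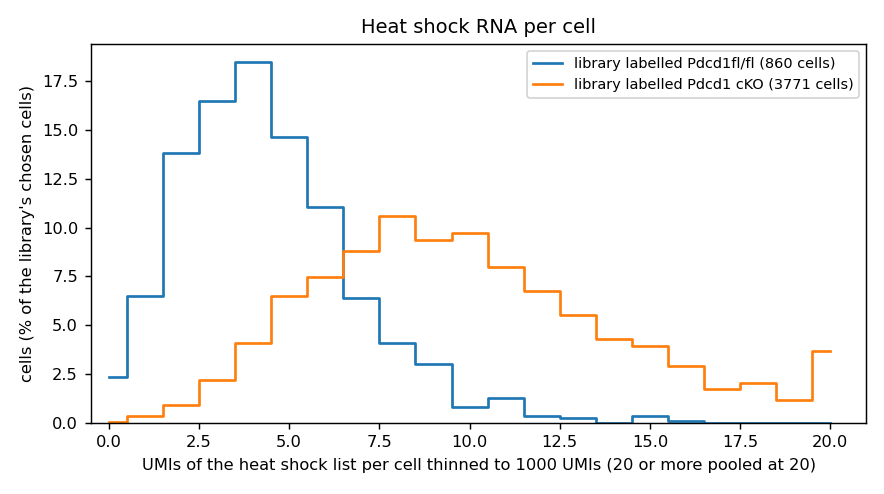
Share of cells (vertical axis, %) by the number of UMIs of the heat shock list in a cell thinned to 1000 UMIs (horizontal axis, cells with 20 or more pooled at 20), for the 860 cells of the library labelled Pdcd1fl/fl (blue) and the 3771 of the library labelled Pdcd1 cKO (orange). The medians were 4 and 9 UMIs, and the curves overlap.

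Many heat shock genes carry a short upstream motif, the heat shock element, built of GAA and its reverse complement TTC. RefSeq promoters (build GRCm38.p6) matched 14 of the 20 listed genes; Hspa8, Hsp90ab1, Hsp90aa1, Hspa9, St13 and Cryab were not in the table. GAANNTTC or TTCNNGAA, each its own reverse complement and free to overlap the other, stood in the 250 bases before the start of 9 of the 14 (64.3%), against 14.5% of all 27025 genes of the table and 12.8% of its 32851 promoters. By itself GAANNTTC was in 6.69% of all promoters and TTCNNGAA in 7.17%. The 9 were Dnaja1, Dnajb4, Dnajb6, Hspa1a, Hspa1b, Hspb1, Hspd1, Hspe1 and Hsph1. They thus held the largest ratios of the list (Hspa1a and Hspa1b) and the smallest of its compared genes (Hspe1). Dnajb1, Bag3 and Stip1, which were higher too, had no match. Other forms of the element were not searched for. Windows of 60 bases of 3 of the 9 are printed to show what a match looks like, 5′ to 3′ on the minus strand with the motif in capitals. Hspa1a (chr17:34972227-34972286) and Hspa1b (chr17:34959309-34959368) have the same 60 bases, with the motif starting 104 bases before the start, and in Hsph1 (chr5:149636337-149636396) it starts 33 bases before. A match describes the sequence, and binding was not measured.
Hspa1a: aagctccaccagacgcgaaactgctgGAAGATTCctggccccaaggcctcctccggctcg
Hspa1b: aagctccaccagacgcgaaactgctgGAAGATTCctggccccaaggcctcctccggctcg
Hsph1: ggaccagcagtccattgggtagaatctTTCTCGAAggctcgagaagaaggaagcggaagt

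Immediate early genes were higher as well. Of 31 listed genes, 29 were compared, 12 were at least 2-fold higher and 0 lower, beside 5.33% and 0.806% of all compared genes. By the median of ratios, 7 were higher and 0 lower, beside 229 and 94 of the 6947 compared genes. The median log2 ratio was 0.90 (0.74 by the median of ratios) beside 0.15 (-0.01) for all. Zfp36 (ENSMUSG00000044786), which speeds the decay of cytokine mRNA, stood at 127 and 501 CPM (1.98, 1.77 to 2.21), and Ppp1r15a, which restores translation after stress, at 98.1 and 344 CPM (1.81, 1.56 to 2.07). Nr4a1, a nuclear receptor made after T cell receptor signals, stood at 136 and 453 CPM (1.73, 1.52 to 1.96). The AP-1 subunits Jun (ENSMUSG00000052684; 236 and 712 CPM; 1.59, 1.43 to 1.76), Fos (104 and 303 CPM; 1.54, 1.30 to 1.80) and Fosb (126 and 265 CPM; 1.06, 0.84 to 1.30) were all higher. Members of the same families split, however. Nr4a2 was higher (1.39, 1.01 to 1.82), while Nr4a3 stood at 131 and 143 CPM (0.13 by CPM, -0.03 by the median of ratios) and Fosl2, another AP-1 subunit, was lower at 177 and 131 CPM (-0.43, -0.64 to -0.22). Outside this list, Ier3, an early gene that limits cell death, had 9 and 400 UMIs (3.04, 2.18 to 4.26), and Rgs16, a brake on G protein signals, 6 and 367 UMIs in 5 and 258 cells (3.47, 2.44 to 5.04). Maf, a transcription factor of activated T cells, had 5 and 189 UMIs (2.75, 1.64 to 4.52). The median of the immediate early list was 0.93 in cells with a Ccl5 UMI after thinning and 0.66 in cells without one then.

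On the higher side too, some large ratios were those of 1 cell. All 224 UMIs of 8430436N08Rik were in 1 cell, as were 156 of 178 UMIs of Igfbp6 and 96 of 106 UMIs of Msln, and none of the 3 genes was read at all on the Pdcd1fl/fl side. With a floor of 3 counts these genes were at least 14.6-fold, 11.6-fold and 6.91-fold higher, values that describe 1 cell each. Only 3 of the 15 leading higher genes were of this kind, fewer than on the lower side, which rests on the smaller library labelled Pdcd1fl/fl.

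Genes of T cell identity and signalling leaned to the library labelled Pdcd1 cKO by smaller amounts. Of 27 genes of the T cell receptor complex list, 1 was at least 2-fold higher (0 by the median of ratios) and 0 lower. These were no larger shares than the 5.33% and 0.806% of all compared genes. An interval above 0 was found for 20 of the 27 and below 0 for none, against 25.0% and 8.92% of all compared genes, and the median was 0.50 (0.34 by the median of ratios). The costimulatory receptors Cd27 (40.7 and 86.9 CPM; 1.08, 0.70 to 1.52) and Cd28 (127 and 239 CPM; 0.91, 0.68 to 1.14) led it, whereas the chains Cd3d (-0.01 by CPM, -0.17 by the median of ratios) and Cd247 (0.11 and -0.05) did not follow Cd3e (0.63) and Cd3g (0.58). The chains of the complex thus did not all shift. Of the 23 compared genes of MHC class I presentation, 3 were at least 2-fold higher and 0 lower. All compared genes had shares of 5.33% and 0.806%, and by the median of ratios 0 of the 23 were past 2-fold. The median was 0.55 (0.39 by the median of ratios). H2-D1, a classical class I heavy chain, stood at 956 and 2027 CPM (1.08, 1.00 to 1.17), and B2m, the light chain of all of them, at 3268 and 4113 CPM (0.33, 0.29 to 0.38). Tap1 (0.66) and Tap2 (0.86), which carry peptides to class I molecules, were between these.

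Memory genes differed more than naive ones. Of 38 compared memory genes, 8 were at least 2-fold higher and 0 lower (5.33% and 0.806% of all compared genes), with a median of 0.47 (0.31 by the median of ratios). Bhlhe40, a transcription factor of resident and activated T cells, had the largest ratio (43.6 and 184 CPM; 2.07, 1.71 to 2.48). Cxcr6, a chemokine receptor that retains T cells in tissue, had 13 and 223 UMIs (1.69, 0.94 to 2.68), and Id2, a factor of effector fate, stood at 116 and 236 CPM (1.02, 0.79 to 1.27). Of 30 compared naive and homing genes, 1 was at least 2-fold higher (0 by the median of ratios) and 0 lower, no more than those shares. Their median was -0.08 (-0.24). Among them, the egress receptor S1pr1 (178 and 123 CPM; -0.53, -0.73 to -0.32) and the transcription factor Lef1 (348 and 254 CPM; -0.46, -0.60 to -0.31) were lower. Of the 30 genes, 4 had an interval above 0 and 6 below, against 25.0% and 8.92% of all compared genes. In cells with a Ccl5 UMI after thinning, the memory median was 0.41 and the naive median -0.03. In cells without one the 2 medians were closer, at 0.23 and 0.11. A UMI of Ccl5, known from memory-like cells, was found in 80.3% (77.5 to 83.0) and 93.8% (93.0 to 94.6) of cells after thinning. Before thinning the shares were 87.1% and 97.8%. It was also found in 1 of 1 and 12 of 13 thinned barcodes with Cd79a and without CD8 RNA. Which cells carried it, and the mix of cells, were not resolved. For context, 11 of 19 effector genes were at least 2-fold higher (5.33% of all), with a median of 1.06 (0.90).

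**Figure D3:**
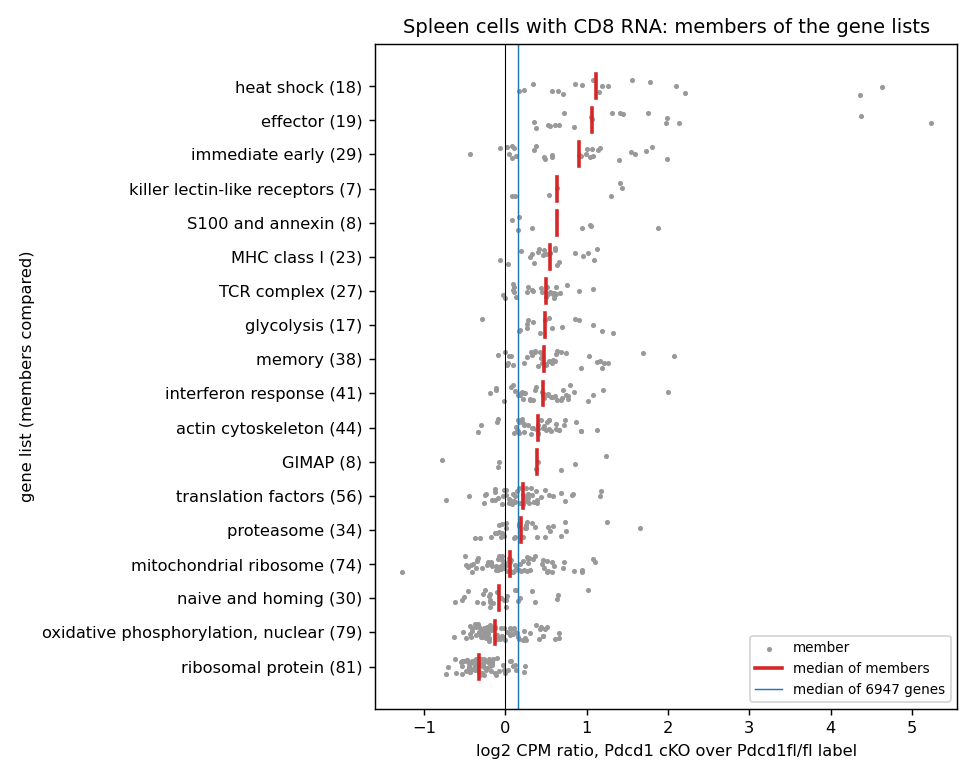
Log2 CPM ratio (horizontal axis; above 0 is higher in the library labelled Pdcd1 cKO) of the members of 18 gene lists (vertical axis, members compared in parentheses). Grey points are genes, red bars the medians of the members and the blue line the median of all 6947 compared genes; heat shock has the highest median of these lists (1.12) and ribosomal proteins the lowest (-0.32).

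Ribosomal proteins and nuclear genes of respiration leaned the other way; of all compared genes, 25.0% had an interval above 0 and 8.92% below. Ribosomal proteins of the cytosol took 35.7% and 29.4% of all UMIs, 70 of 81 compared had an interval below 0 and 7 above, and their median was -0.32 (-0.48 by the median of ratios). The large subunit proteins Rpl36 (3661 and 2198 CPM; -0.74, -0.78 to -0.69) and Rpl35a (3350 and 2059 CPM; -0.70, -0.75 to -0.65) were lowest, and Rplp0, a stalk protein, was highest (0.24, 0.19 to 0.29). Nuclear genes of oxidative phosphorylation had a median of -0.13 (-0.29), with 37 of 79 intervals below 0 and 14 above. Atp5md, a small subunit of ATP synthase, was lowest (596 and 385 CPM; -0.63, -0.74 to -0.52), and Ndufv1, a core subunit of complex I, was highest (0.66, 0.23 to 1.14). The mitochondrially encoded genes of the same complexes did not follow, with a median of 0.18 (0.02 by the median of ratios) and 7 of 12 intervals above 0 and 1 below. Translation factors (median 0.21, 0.05 by the median of ratios) and the proteasome (0.19 and 0.03) stayed near the median gene, and the mitochondrial ribosome turned from 0.06 by CPM to -0.10 by the median of ratios. The nuclear RNA Malat1 (ENSMUSG00000092341) stood at 1429 and 3099 CPM (1.12, 1.05 to 1.18), while Neat1, another nuclear RNA from the neighbouring locus, had 0.08 by CPM and -0.08 by the median of ratios. The ratio also moved with gene length. From the shortest to the longest of 5 bins of gene length, the share of genes at least 2-fold higher fell from 8.65% to 2.95% and the share at least 2-fold lower rose from 0.360% to 1.59%.

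RNA of several other cell types, though not of all, was higher in the library labelled Pdcd1 cKO as well, and its part in the results was not tested. Of 18 B cell markers, 12 and 17 were read, adding up to 190 and 874 CPM, with Ighm (94.5 CPM) and Igkc (499 CPM) as the most abundant. The defining marker Cd79a was at 0 in both by the rule, and Ms4a1 was at 0 in the library labelled Pdcd1fl/fl. Igkc, the light chain constant region of antibodies, had 92 UMIs in 84 cells and 3513 UMIs in 2068 cells (2.89, 2.60 to 3.21), which after thinning covered 6.05% and 38.2% of cells, before it 9.77% and 54.8%, and in thinned barcodes with Cd79a and without CD8 RNA 0 of 1 and 8 of 13. Cd74, the invariant chain of MHC class II, had 2 and 257 UMIs (4.33, 2.78 to 7.70), and Iglc3 0 and 313 UMIs, at least 20.4-fold higher with the floor of 3 counts. Plasma cell markers added up to 58.9 and 152 CPM (5 and 10 of 10 read; led by Xbp1 and Ighg2b), and erythroid markers to 18.2 and 61.7 CPM (5 and 10 of 10; led by Blvrb and Hbb-bs). Hbb-bs itself, a globin, had 0 and 104 UMIs in 98 cells, at least 6.78-fold higher. NK cell markers added up to 120 and 274 CPM (9 and 11 of 11), led by Eomes, which CD8 T cells also express, and the defining Ncr1 was at 0 in the library labelled Pdcd1fl/fl. Macrophage and monocyte markers added up to 92.3 and 128 CPM (9 and 12 of 16; led by Ctss, with C1qa at 0 in both and Lyz2 at 0 by the rule), and granulocyte markers to 1042 and 1010 CPM (2 and 5 of 12), nearly all of it Srgn, which T cells express, with Mpo and Elane at 0 by the rule. Markers of stroma added up to 82.8 and 87.5 CPM and those of progenitors to 58.1 and 65.6 CPM. Those of dendritic cells leaned lower, at 37.8 and 27.8 CPM (-0.45, -0.89 to 0.03). Markers of CD4 T cells added up to 18.9 and 30.8 CPM, and those of platelets and gamma delta T cells to less.

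Beside the spleen, the same rule kept 584 and 1724 thymus cells and 296 and 386 tumor cells. The heat shock median was 0.18 in the thymus pair and -0.56 in the tumor pair, and the immediate early median 0.32 and -0.59, while all compared spleen genes had medians of -0.16 and -0.17 there. Jun stood at 83.7 and 117 CPM in the thymus and at 82.9 and 30.1 CPM in the tumors (-1.46, -1.75 to -1.18). Hspa1a, at 0.60 (-0.02 to 1.34) and 0.54 (-0.16 to 1.27), had much smaller ratios there than in the spleen, with intervals that cross 0, and Hspa1b was at 0.62 (0.01 to 1.34) in the thymus and -1.05 (-1.74 to -0.42) in the tumors. The difference between tissues was not tested, and depth, tissue and preparation cannot be told apart in them.

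With 1 mouse a side, differences between mice, preparations and genotypes cannot be told apart. The depth of the libraries differed before the filter, and how much of the result follows from it was not tested. In place of 370 higher and 56 lower genes, the 169 and 232 cells without a Ccl5 UMI after thinning gave 735 and 577. With at least 2 CD8 UMIs the lower genes were 92.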

How the data were processed

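The authors made PIPseq v3 libraries and deposited, for each library, raw UMI counts of 32227 genes per called barcode (build GRCm39), a count unit without normalization. Genes were aligned by Ensembl identifier. Cells were chosen by the thresholds given in the text, no doublets were removed, and counts were summed per library and scaled to CPM. The chosen cells held 1376014 and 7039575 UMIs. Genes with at least 100 UMIs were compared by log2 CPM ratio with 0.5 counts added to each side, with exact conditional binomial 95% intervals, Poisson intervals of CPM and Clopper-Pearson intervals of shares; the median of ratios was the main alternative. No test was made. A gene at 0 in a library was set to 3 counts there to give a bound. Cells were thinned at random to 1000 UMIs for shares and for the split by Ccl5. Named genes were Pdcd1 and the genes of the rule, 15 on each side by interval bound, 10 on each side with at least 200 CPM, and leading members of each list; other names were picked after their values were seen. Cells and gene lists were chosen with earlier results of these data known. Coordinates are of GENCODE vM39. Alternatives changed scaling, depth, filters, weighting and the rule for cells. Python 3.11.15, NumPy 2.4.6, SciPy 1.17.1 and pandas 2.3.3 were used, tested on simulated data.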

Additional observations from a re-analysis of the deposited data

Results flagged for a closer look

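In the tumor pair, several results went the opposite way from the spleen pair, by the same rule for cells; each pair is 1 library a side and the difference between tissues was not tested. The log2 CPM ratio in the tumors was -1.05 for Hspa1b, -1.17 for Ppp1r15a, -1.08 for Nr4a1, -1.46 for Jun, -1.36 for Fos and -1.10 for Hsp90aa1, against 4.37, 1.81, 1.73, 1.59, 1.54 and 1.26 in the spleen. The median log2 ratio in the tumors was -0.59 for the immediate early list and -0.56 for the heat shock list, against 0.90 and 1.12 in the spleen.

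Barcodes that the rule left out held RNA of granule proteins of myeloid progenitors: in the library labelled Pdcd1 cKO, 69 of 4928 barcodes past the filter had an Elane UMI and 51 an Mpo UMI, and 0 of 1478 had either in the library labelled Pdcd1fl/fl. Of those, 53 and 35 also had a CD8 UMI. These barcodes took no part in the comparisons.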

How the results depend on the processing

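No paired analysis was possible because the labels give each group the same replicate number and 1 library. Of the 15 alternatives in the plan and 1 added after seeing the data (without genes of which 1 cell holds at least 10 UMIs and 20% of a library's UMIs), the 370 higher genes became 229 by the median of ratios, 1068 and 72 with a minimum of 20 and 500 UMIs per gene, and 735 in cells without a Ccl5 UMI, and stayed within 1.5 times otherwise. The 56 lower genes became 94 by the median of ratios, 391 and 2 with those minimums, 577 in cells without a Ccl5 UMI, 92 with at least 2 CD8 UMIs, 37 with no CD8 and no exclusion rule, 95 also without Igkc, Ighm, Cd74, Hbb-bs and Hba-a1 UMIs, and 35 without the genes of 1 cell. Other gene minimums compare other numbers of genes (11386 and 2160). Cells without a Ccl5 UMI after thinning were 169 and 232, and 749 of 860 and 3687 of 3771 cells had one before thinning. For the rest the cause was not tested. Pdcd1 stayed between 2.43 and 5.08 under 13 alternatives.

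Of the named genes past 2-fold, some log2 ratios changed sign: with at least 2 CD8 UMIs Dysf (2.30), Stox2 (0.59), Ehd4 (0.70) and Oplah (1.86); in cells of 1000 to 2000 UMIs 6030407O03Rik (1.94) and Astn2 (0.28); and in cells without a Ccl5 UMI Stox2 (0.58), Lrrc4c (1.07) and Nr4a2 (-0.15). For all but Nr4a2, the setting left out the cell with most of the UMIs, as the counts per cell show; for Nr4a2 the cause was not tested. Of 4215 values of 326 named genes, 3578 stayed inside the counting interval of the main value and 628 moved out of it without such a change of sign. For 23 pairs of a gene and a setting, both libraries had at most 3 UMIs and no value was given. Of 450 list medians, 425 moved by less than the half-width of the interval of a typical member gene, a wide band for a median. The heat shock median ranged from 0.95 to 1.21. Some list medians changed sign, among them cell cycle (-0.34 to 0.40), killer lectin-like receptors (-0.29 to 1.23) and naive and homing (-0.24 to 0.11). Shares of cells depend on depth: 45 of 48 unthinned shares lay outside the interval of the thinned share. Depth limits genes of few UMIs: the median compared gene had 299 UMIs over both libraries.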

Other observations

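Receptors for cytokines that share the common gamma chain differed within the family. Il2rg, the common chain, stood at 284 and 605 CPM (library labelled Pdcd1fl/fl first; log2 ratio 1.09, 0.94 to 1.24) and Il2rb, which pairs with it for IL-2 and IL-15, at 258 and 351 CPM (0.44, 0.28 to 0.61), while Il7r stood at 172 and 187 CPM (0.12 by CPM, -0.04 by the median of ratios). The 22 compared genes of cytokine signalling had a median of 0.14, which the median of ratios turned to -0.03. Stat4, which carries IL-12 signals, was lower (118 and 93.3 CPM; -0.35, -0.59 to -0.09).

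Of 20 compared genes of the Bcl2 family and apoptosis, 1 was at least 2-fold higher (Bid, a pro-death member, 5 and 106 UMIs; 1.92, 0.78 to 3.70) and 0 lower, near the 5.33% and 0.806% of all compared genes, with a median of 0.38. Bcl2, which keeps resting T cells alive, stood at 136 and 207 CPM (0.61, 0.39 to 0.84), and Bbc3, a pro-death member, was lower (79.2 and 54.3 CPM; -0.55, -0.86 to -0.23). Of 8 GIMAP genes, GTPases of lymphocyte survival that sit in 1 cluster, Gimap7 was higher (35.6 and 85.1 CPM; 1.24, 0.84 to 1.71) and Gimap5 lower (201 and 117 CPM; -0.78, -0.98 to -0.58). Interferon response genes had a median of 0.46 over 41 members (0.29 by the median of ratios). Of these, 4 were at least 2-fold higher (2 by the median of ratios) and 0 lower, against 5.33% and 0.806% of all compared genes.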
